A study of Mus musculus with 2 samples.

Results

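The genes described here make fatty acids and the lipids built from them: Fasn, Acaca, Acly, Scd1, Scd3, Elovl3, Elovl6, Fa2h, Cers4 and Dgat2. They were measured in the skin of newborn mice with and without Pla2g4e, a cytosolic phospholipase A2 that makes precursors of N-acylethanolamines. The members were the probes that carry 1 of these 10 gene names and are not control spots, which gave 16 of 39429 probes, for 10 of 24290 named genes. There were 2 Agilent 1-colour arrays, 1 per genotype. The wild-type array held skin RNA of Pla2g4e+/+ mice and the knockout array that of Pla2g4e-/- mice, both of strain C57BL/6N at postnatal day 0. Each RNA was an equal pool from 5 animals, so the spread between animals is not measured, and the labels do not give the promoter, Cre or exon behind the deletion.

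In skin these enzymes serve the epidermis, the hair follicle, the sebaceous gland and the fat layer below the dermis. Acly turns citrate into acetyl-CoA, Acaca turns that into malonyl-CoA, and Fasn builds palmitate from both. Elovl6 and Elovl3 lengthen fatty acids, Scd1 and Scd3 put a double bond into them, Fa2h adds a hydroxyl group, Cers4 joins fatty acids to sphingoid bases, and Dgat2 completes triglycerides. Sebaceous glands are rich in Scd1, Scd3 and Elovl3, and the factor SREBP-1 drives many of these genes.

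A signal is the processed brightness of a spot, after the scanner software subtracted a background surface fitted over the array. Each array's log2 signals were set relative to their own 75th percentile, and a difference is knockout minus wild type on that scale. With 1 array per group no difference has a replicate check and none was tested. A fixed size of 1.5-fold was used to count genes. The error given with a difference comes from the scanner's error model and describes the spot, not the animals; its median over all measured genes was 0.20 log2. For bright spots it follows from a preset term of 0.1 of the signal in that model, so it is not a measured spread. The 332 probes that were printed several times and lay above background had a median SD between spots of 0.037 log2, and no member is among them. The number of arrays limits the precision.

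Spot signals had medians of 249 (wild type) and 241 (knockout). The targeted gene, Pla2g4e, read 662 and 320 on its brighter probe, which left 51.4% after scaling; a probe outside the deleted part checks nothing, and where the deletion lies is not known here. Both arrays lay on 1 slide at different positions. Of the sex-linked genes, Xist read 796 with Pla2g4e and 2889 without it, and the Y-linked Ddx3y read 2893 and 2.36, the latter not well above background. Genotype, slide position and the sex of the pooled animals therefore cannot be told apart in any difference below. The labelled tissue carried its markers: all 10 epidermal keratinocyte markers were well above background on both arrays, with Krt14 at 92691 and 87086 and Lor at 261825 and 246420.

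Most of the lipogenic genes were lower in the knockout pool. All 10 were well above background on both arrays, and no member spot was saturated or marked as an outlier. At least 1.5-fold lower were 6 of the 10 (Fa2h, Elovl3, Fasn, Cers4, Elovl6 and Scd1), where 4.5% of the 19397 measured genes were that much lower. At least 1.5-fold higher were 0 of the 10, where 6.74% of measured genes were. Below 0 were 8 of the 10, against 48.2% of measured genes. Of the 16 probes, 7 were at least 1.5-fold lower, against 4.25% of all probes well above background on both arrays. The median of the members was -0.71 log2 against 0.01 for all measured genes, and the members ran from -1.67 to 0.17. Fa2h and Elovl3 were the 2 members at least 2-fold lower, a size that 1.44% of measured genes reached. Because the list was drawn up with earlier results of these arrays known, these counts describe the arrays and do not support a direction of their own. In whole skin, fewer cells of a type and less RNA per cell cannot be told apart.

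**Figure D1:**
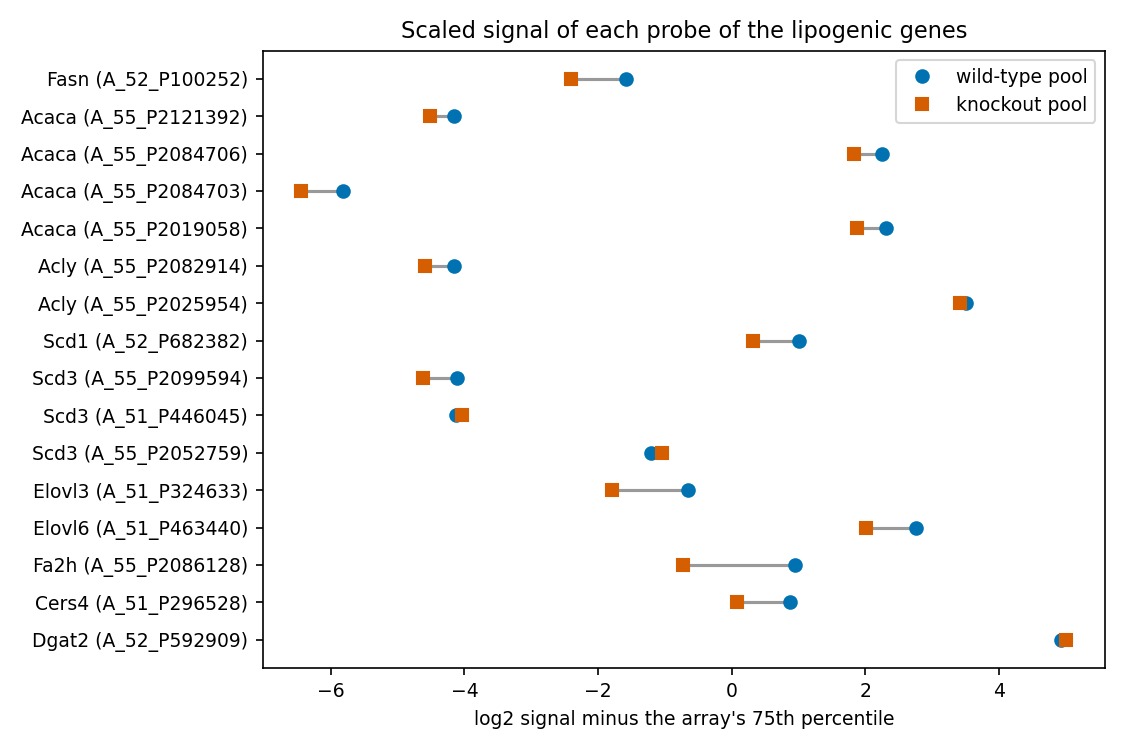
Scaled log2 signal (horizontal axis, log2 signal minus the array's 75th percentile) of each of the 16 probes in the wild-type pool (circles) and the knockout pool (squares), 1 array each and no error bar. The knockout square lies to the left for 13 of the 16 probes; levels of different probes cannot be compared with each other.

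Among the genes of fatty acid synthesis, Fasn was lower and Acly nearly level, with Acaca between them. Fasn, the fatty acid synthase, read 742 in wild-type skin and 397 in knockout skin on its 1 probe, at mm9 chromosome 11, 120667666 to 120667725. That is a difference of -0.81 log2 with an error of 0.20, or 57.0% of the wild-type level after scaling. Acaca, the acetyl-CoA carboxylase of the cytosol, read 11042 and 7682 on its brightest probe, A_55_P2019058 at chromosome 11, 84215093 to 84215152, a difference of -0.43. It did not reach 1.5-fold. Acly, the ATP citrate lyase, read 25459 and 22281 on its brighter probe, a difference of -0.10 that is smaller than its error of 0.20.

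The probes of Acaca gave the same sign, and those of Acly the same sign at different sizes. All 4 Acaca probes were lower in the knockout pool. A_55_P2084706 read 10665 and 7458 (-0.42), A_55_P2121392 read 125 and 91.3 (-0.36), and A_55_P2084703 read 39.5 and 24.1 (-0.63, error 0.26). The 2 bright probes are not independent, since they share a run of 55 bases. Their last 30 of 60 bases are shown because they tell the probes apart; capitals mark bases of the shared run.
A_55_P2019058: TGTTGAAATAAACCTCCACATTTGTAgaag
A_55_P2084706: GTTGAAATAAACCTCCACATTTGTAaaaaa
The array's own annotation puts A_55_P2084706 and A_55_P2084703 on mm9 chromosome 12, at 10166955 to 10167014 and 10164855 to 10164914, while RefSeq has Acaca on chromosome 11. The second Acly probe, A_55_P2082914, read 126 and 86.9, a difference of -0.44. It differed from the brighter Acly probe by -0.34 log2, with a combined error of 0.29.

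Of the desaturases, Scd1 was lower and Scd3 was not, and 1 probe named for Scd3 went with Scd1. Scd1, the stearoyl-CoA desaturase that makes oleate and palmitoleate, read 4470 and 2624 at mm9 chromosome 19, 44469387 to 44469446, a difference of -0.68 with an error of 0.20. The brightest Scd3 probe, A_55_P2052759, read 970 and 1021 (0.17), and A_51_P446045 read 128 and 128 (0.10). Both are listed for the Scd3 transcript without that of Scd1. The third, A_55_P2099594, read 129 and 85.1 (-0.50), and the array's annotation lists it for the RefSeq transcripts of both Scd3 and Scd1. It lay 0.67 log2 below the brightest Scd3 probe, with a combined error of 0.29, and 0.17 above the Scd1 probe, with a combined error of 0.29. The sequences below are the probe that both genes share, in full, and the first 30 of 60 bases of the probes listed for 1 gene.
Scd3 and Scd1, A_55_P2099594: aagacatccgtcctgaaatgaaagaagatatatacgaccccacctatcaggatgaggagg
Scd1, A_52_P682382: actcctgggctaagtatctgacagtctcac
Scd3, A_55_P2052759: ataaagtcaaccataggtcaagaggcagag
Scd3, A_51_P446045: ttcagggtaggtgtctcaagccaaatccaa
The longest run that the shared probe has in common with any of the other 3 is 5 bases, so it reads another stretch of these transcripts. Among the paralogs, Scd2, a desaturase of many tissues, read 27949 and 18668, a difference of -0.49. Scd4 read 113 and 107, a difference of 0.00.

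The elongases of the list were both lower, and their paralogs were not lower by that size. Elovl3, which makes very long saturated and monounsaturated chains in sebaceous glands, hair follicles and brown fat, read 1414 and 606 at mm9 chromosome 19, 46209762 to 46209821. That is -1.13 log2 with an error of 0.20, or 45.7% of the wild-type level. Elovl6, which lengthens palmitate to stearate, read 15085 and 8439 at chromosome 3, 129341248 to 129341307, a difference of -0.75 or 59.6%. On their brightest probes, Elovl1 stood at 0.19, Elovl4 at 0.11, Elovl5 at 0.09 and Elovl7 at 0.44. Elovl2 stood at 2.02, from a dim probe that read 19.4 and 73.7, and under normexp background correction it was 0.79. That correction adds an offset of 50 to each signal, so differences of dim probes shrink toward 0 by construction, here and below.

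Fa2h had the largest difference of the 10, and Cers4 stood beside the fatty acid enzymes. Fa2h, the fatty acid 2-hydroxylase, read 4312 in wild-type skin and 1268 in knockout skin at mm9 chromosome 8, 113869096 to 113869155. The difference of -1.67 log2, with an error of 0.20, left 31.3% of the wild-type level, and 0.278% of measured genes had a lower value. Cers4, a ceramide synthase, read 4108 and 2204 at chromosome 8, 4523988 to 4524047, a difference of -0.81 or 57.1%. Other ceramide synthases lay closer to 0, with Cers3 at 0.22, Cers5 at 0.08, Cers6 at -0.19 and Cers2 at -0.21. The probes of Fa2h and Elovl3, the genes farthest from 0, start as follows (first 30 of 60 bases each).
Fa2h, A_55_P2086128: ctgtttacggtgaagctatctagagatttt
Elovl3, A_51_P324633: ggcctggtaggcgcttaataaatgtctttt

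Dgat2, the acyltransferase that completes triglycerides, differed by less than its error. It read 67827 and 67544 at mm9 chromosome 7, 106302215 to 106302274, a difference of 0.09 log2 with an error of 0.20. Its sign turned under quantile normalization, where it stood at -0.01. Dgat1, which catalyses the same reaction and is unrelated in sequence, read 1639 and 1153, a difference of -0.42.

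**Figure D2:**
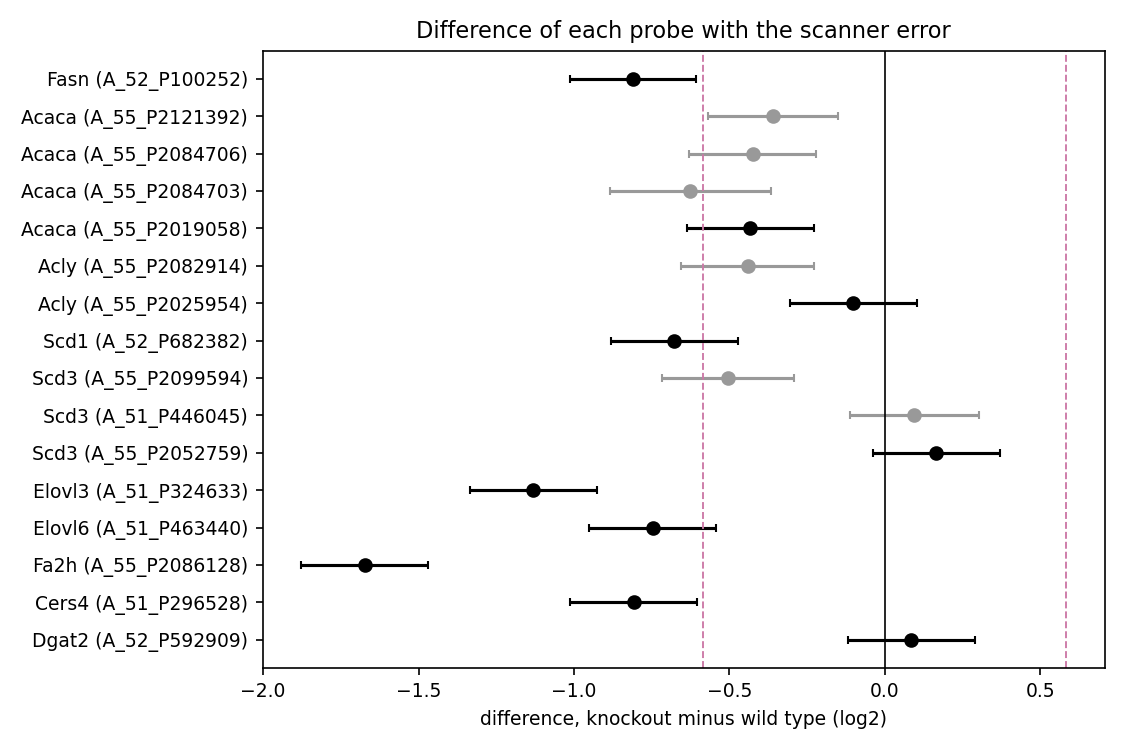
Difference of each of the 16 probes (horizontal axis, knockout minus wild type, log2) with the scanner error as bars; black marks the probe that stands for its gene, grey the other probes, and dashed lines 1.5-fold. Fa2h at -1.67 and Elovl3 at -1.13 lie farthest left, while the 2 probes listed for Scd3 without Scd1 lie right of 0 and the shared probe lies at -0.50.

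In order of difference, Fa2h lay 0.54 log2 below Elovl3 and Elovl3 0.32 below Fasn, each gap larger than the combined scanner error of 0.29. Fasn, Cers4, Elovl6 and Scd1 followed within gaps of 0.00, 0.06 and 0.07, and these 4 cannot be ordered. That error comes from the scanner's model and is not a measured spread, so the larger gaps do not order genes across animals either. The gap of 0.25 between Scd1 and Acaca was also within the error, and that of 0.33 between Acaca and Acly was not. Acly, Dgat2 and Scd3 were apart by 0.19 and 0.08, within the error. The mean signal of 8 members exceeded that of the median gene, and 4 of these were at least 1.5-fold lower (Scd1, Elovl6, Fa2h and Cers4), where 2.43% of such genes were.

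**Figure D3:**
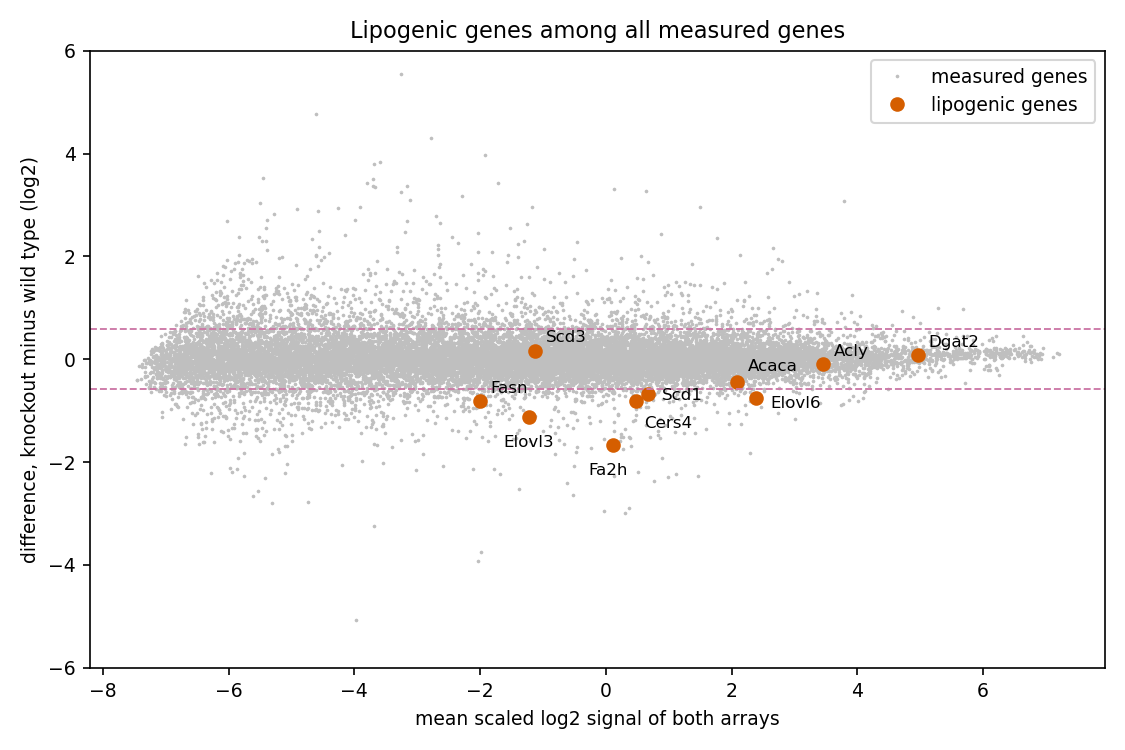
Difference between the pools (vertical axis, knockout minus wild type, log2) against the mean scaled log2 signal of both arrays (horizontal axis) for the 19397 measured genes (grey) and the 10 lipogenic genes (orange); dashed lines mark 1.5-fold. The 6 genes below the lower line span a wide range of signal, and Dgat2 and Acly lie at the bright end near 0.

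Enzymes that supply or assist fatty acid synthesis did not reach 1.5-fold in either direction. Of 18 measured genes, 0 were lower and 0 higher by that size, against 4.5% and 6.74% of all measured genes. Their median was -0.06 log2. The lowest was Slc25a1, the mitochondrial citrate carrier, at 3302 and 2119 (-0.55), and scaling by the median put it past 1.5-fold at -0.60. The highest was Thrsp, a lipogenic protein of fat and liver, at 790 and 1088 (0.55). Acacb, the mitochondrial paralog of Acaca, stood at 0.33, with readings of 2278 and 2687. The desaturation and elongation partners, 17 measured, had a median of -0.10, with 0 lower and 1 higher, the dim Elovl2. That count is near the share of all measured genes that were higher. Scd2 was the lowest.

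The factors that regulate lipogenesis lay near 0 as a list, with a median of -0.02 log2. Of 21 measured, 2 were at least 1.5-fold higher, a share near the 6.74% of all measured genes, and 0 were lower. Irs2, an adaptor of the insulin receptor, read 8459 and 15748 (0.99), and Nr1h3, the liver X receptor alpha, read 1596 and 2301 (0.62, and 0.57 when each array was scaled by its median). Insig1, the sterol-sensing anchor of SREBP, was lowest at 226 and 158 (-0.43). Srebf1, which encodes SREBP-1, read 266 and 216, a difference of -0.21 that is about the size of its error. Srebf2 stood at -0.31 on its brighter probe and 0.13 on the other, Mlxipl, which encodes ChREBP, at -0.03, and Pparg at -0.22. These are RNA levels and say nothing of the processing of the proteins.

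Enzymes of glycerolipids, waxes and sterol esters lay on both sides of 0. Of 21 measured, 3 were lower: Soat1, which esterifies cholesterol (250 and 126, -0.90), Agpat2, an acyltransferase of adipocytes (12749 and 7644, -0.65), and Awat2, a wax synthase of the sebaceous gland (154 and 94.7, -0.61). Higher were 2: Mogat2, a monoacylglycerol acyltransferase with a dim probe (48.2 and 105, 1.22), and Lpin1, a phosphatidate phosphatase (640 and 1213, 1.01). The median was -0.11. Of 15 measured partners of ceramide synthesis, Degs2, which makes phytoceramides, read 4010 and 7425 (0.98) and was the 1 higher, and Sgms2, a sphingomyelin synthase with a dim probe, the 1 lower at 87.3 and 53.4 (-0.62). Their median was 0.08, and 1 of 15 in each direction is near the shares of all measured genes.

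Markers of the cell types that carry these enzymes were set beside them. All 16 sebaceous gland markers were well above background on both arrays. At least 1.5-fold lower were 2, Soat1 and Awat2, against 4.5% of all measured genes. That much higher were 0, against 6.74%, and 13 lay below 0, against 48.2%. Their median was -0.13 log2, and their summed scaled signal, in units of each array's 75th percentile, was 92.8 with Pla2g4e and 83.1 without it. Such a sum is weighted by its brightest probes, here that of Krt79, and does not measure the amount of a cell type. The same holds for the sums of the lists below. Mc5r, the melanocortin receptor of sebocytes, read 1295 and 928 (-0.39). Krt79, a keratin of the sebaceous duct, read 131739 and 107600 (-0.20). Cidea, also a brown adipocyte marker, read 9471 and 6525 (-0.45). Pparg stood at -0.22, Mgst1 at -0.19 and Prdm1 at -0.14. Others lay nearer 0: Awat1 read 935 and 880 (0.00), and Dgat2l6 stood at -0.12, Plin2 at -0.04 and Far2 at 0.08. The 3 markers above 0 were Awat1, Far2 and Acsbg1. With normexp background correction Awat2 was at -0.32 and 1 marker remained lower. Among markers above the median signal, 0 were lower by that size. The highest was Acsbg1 at 0.20.

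Hair follicle markers were lower in the knockout pool by about the size seen for the lipogenic genes. Of 23 measured, 15 were at least 1.5-fold lower, with a median of -0.78 log2 and a summed scaled signal of 229 against 146. Over all measured genes, 4.5% were that much lower and 6.74% that much higher. Krt34 (6121 and 2027, -1.50) and Krt87 (1107 and 369, -1.49), keratins of the hair shaft, were lowest, and Krt84, from a dim probe, was the 1 higher at 2.34, or 1.41 with normexp. All 23 were well above background on both arrays, and 22 lay below 0, of which Gata3 at -0.05 and Lef1 at -0.17 were within their scanner error. Krt85 stood at -0.92 on its brightest probe, at -0.39 as the mean over its probes and at -0.0020 with normexp. It has 3 probes, and which of them the normexp value rests on is not known here. Fa2h and Elovl3 are known from hair follicles as well as sebaceous glands, and the part of the follicle in their differences was not tested.

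Most white adipocyte markers lay below 0, and some of them were at least 1.5-fold lower. Of 18 measured, 14 lay below 0 and 4 above, and 5 were at least 1.5-fold lower, against 4.5% of all measured genes: Gpd1, the glycerol-3-phosphate dehydrogenase (26784 and 11251, -1.16), Plin1, a coat protein of lipid droplets (6886 and 2948, -1.13), Agpat2, Adipoq (22570 and 13561, -0.64) and Retn (12084 and 7387, -0.62, and -0.55 with normexp). Pnpla2, the triglyceride lipase, was the 1 higher (13378 and 22286, 0.83), a count near the share of 6.74% of all measured genes. The median was -0.11, and the summed scaled signal was 172 with Pla2g4e and 153 without it. Lep read 23.6 and 7.06 and was not well above background in the knockout pool. Fabp4 stood at -0.09 and Cidec at -0.11. Of 11 brown adipocyte markers, Ppargc1a was the 1 higher at 0.68, also near that share, and 0 were lower. Their median was 0.15 and their summed scaled signal 21.4 against 20.1. Ucp1 read 174 and 245 (0.58), and Adrb3 was lowest at -0.57. Adrb3 passed 1.5-fold lower at -0.62 with scaling by the median and at -0.60 with quantile normalization. The part of fat tissue in the lipogenic differences was not tested.

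Cholesterol synthesis, which SREBP-2 drives, was lower as well, in fewer of its genes by 1.5-fold. Of 22 measured, 5 were lower (Idi1, Fdps, Cyp51, Nsdhl and Lss, of which Idi1 was farthest from 0 at 13518 and 6328 and Lss nearest at -0.59), 0 were higher and 19 lay below 0, with a median of -0.43 and Tm7sf2 highest at 0.47. The count was 8 with scaling by the median, 4 with normexp, 4 with the mean over the probes of a gene and 3 among genes above the median signal. Nsdhl stood at -0.56 with normexp and with the mean over probes, short of 1.5-fold, and Lss stood at -0.56 with normexp. Epidermal keratinocyte markers, by contrast, had a median of 0.11 over 10 genes and a summed scaled signal of 545 against 567. Ivl, a cornified envelope precursor, was the 1 higher at 0.63, a count near the share of 6.74% of all measured genes. By that size 0 were lower, and Flg2 was lowest at -0.28.

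**Figure D4:**
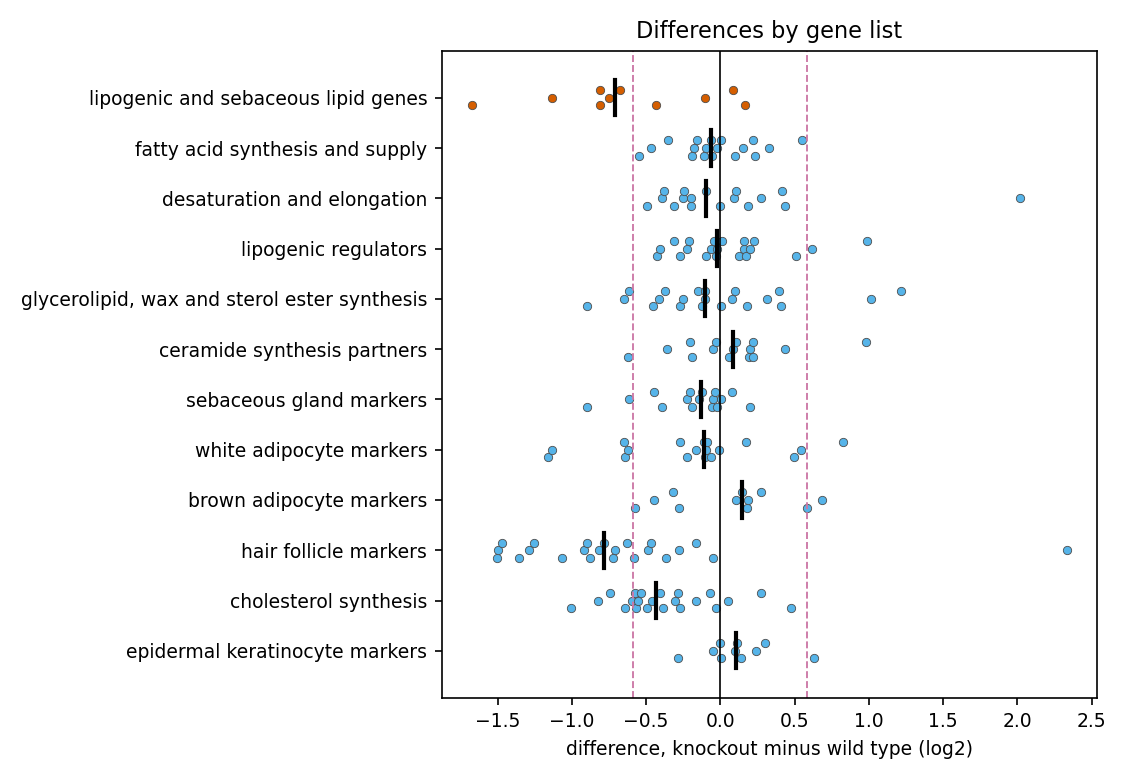
Difference of each measured gene (dots; horizontal axis, knockout minus wild type, log2) for the 10 lipogenic genes (orange) and 11 lists of partners and markers (blue), with the median as a black bar and 1.5-fold as dashed lines. The medians are -0.71 for the lipogenic genes, -0.78 for hair follicle markers and -0.43 for cholesterol synthesis, and the other lists have medians between -0.13 and 0.15.

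Some members lie on the same chromosome, and of the 6 promoter windows searched only that of Fasn held a match. The probes that stand for Fasn, Acaca and Acly lie on chromosome 11, and those for Scd1, Scd3 and Elovl3 on chromosome 19. RefSeq promoter windows of build GRCm38.p6 were matched by symbol for 6 of the 10 (Fasn, Acaca, Acly, Scd3, Elovl6 and Cers4), and the 250 bases before each start were searched on both strands. The letters CCAAT, the core of the NF-Y box, were in 1 of the 6 windows, that of Fasn, and in 33.8% of all 32851 windows. A sterol regulatory element, TCACNCCAC, was in 0 of the 6 and in 1.05% of all windows, and the E-box CACGTG in 0 of the 6 and in 6.02%. No match says only that these letters are not in this window, and the Acaca window lies at a start inside the gene. The Fasn window, chr11:120824548-120824797 on the minus strand, is shown since it holds 3 matches on either strand; capitals mark them, and the last 2 overlap.
Fasn: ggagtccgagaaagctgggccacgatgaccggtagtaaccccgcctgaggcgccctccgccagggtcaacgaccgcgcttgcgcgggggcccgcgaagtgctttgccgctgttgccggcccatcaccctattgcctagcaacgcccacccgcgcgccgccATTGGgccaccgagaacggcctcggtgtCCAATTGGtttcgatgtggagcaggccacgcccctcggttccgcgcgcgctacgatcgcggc
Counted from the start of the gene, the matches span -90 to -86, -62 to -58 and -59 to -55. Fasn was at 57.0% of its wild-type level. Of the genes without a match in their windows, Cers4 was at 57.1%, Elovl6 at 59.6%, Acaca at 74.1%, Acly at 93.2% and Scd3 at 112%. Whether the letters bear on the differences was not tested. A match is a description of the letters and not of binding.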

How the data were processed

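RNA on each array was 200 ng of total RNA labelled with Cy3, per the labels' protocols. The deposited scanner files give spot intensity on a linear scale, with a fitted background surface subtracted and detrended by Agilent Feature Extraction 11.5.1.1, per the file headers and the submitters' processing notes; probe positions are on mm9, per the file headers. The deposited value table holds a ratio: the same intensity divided by 2406 (wild type) or 2273 (knockout) at all 44397 spots; its column medians were 0.0946 and 0.0969, and its values were neither logged nor centred. No other column of sample values was used.

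Control spots and 234 outlier spots were left out and spots of a probe averaged. Then log2 was taken and each array's 75th percentile subtracted. Probes were named through a RefSeq table (28326 by accession, 2204 by symbol, 174 by synonym, 1767 by the file's name, 6951 unnamed). Only probes called well above background in both pools were kept, and the brightest stood for its gene. Steps ran in Python 3.11.15 with limma 3.58.1 for normexp. The scaling and gene-level steps were run on a simulated array pair, made from the wild-type array with known folds. That simulation did not cover background calls that differ between arrays, the noise of dim probes or normexp. No test was possible with 1 array per group, so no p-value is given. Alternatives covered scaling, background correction, probe choice, outliers, dim genes and the fold size. Members and gene lists were chosen with earlier results of these data known. Named genes are the members, their paralogs, 5 regulators, and list genes past 1.5-fold (the farthest 2 where there were over 5) or at a list's ends; other markers were named for the cell type they mark, after their values were seen.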

Additional observations from a re-analysis of the deposited data

How the results depend on the processing

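Fasn, Scd1, Elovl3, Elovl6, Fa2h and Cers4 were at least 1.5-fold lower in each of the 8 settings that keep all genes: the 75th percentile over all probes or over probes above background, scaling by the median, quantile normalization, the authors' deposited values, normexp background correction, the mean over a gene's probes, and outlier spots kept. Among genes above the median signal the count was 4. At a size of 2-fold the count of members lower was 2 in place of 6, by the construction of that setting. The median of the members ran from -0.76 with scaling by the median to -0.69 with normexp, and was -0.55 among the 8 members above the median signal. The mean over probes put Scd3 at -0.08, since it takes in the probe shared with Scd1. Among the lists, 2 regulators were higher, but 1 with scaling by the median and 3 with the mean over probes, and the brown adipocyte median was -0.11 among bright genes alone. The normexp setting adds an offset of 50 to each signal, so it shrinks the differences of dim probes by construction. With it Soat1 stood at -0.59, Mogat2 at 0.65 and Sgms2 at -0.25. No paired analysis was possible because each genotype has 1 array, and for the same reason no replicate could be left out.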
